A study of Mus musculus with 5 samples.

Results

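MHC class II genes encode the molecules that present peptides from the endosomal pathway to CD4+ T cells. The 9 genes followed here were H2-Aa, H2-Ab1, H2-Eb1, Cd74, Ciita, H2-DMa, H2-DMb1, H2-Oa and H2-Ob. All probe sets that the platform annotation assigns to one of these genes alone were taken, which gave 16 probe sets for 8 of the genes, among 18193 genes with such a probe set in all. All 8 had at least 1 probe set above a filter on dim values, as did 12813 genes in all, which are the genes tested below. H2-DMb1 has no such probe set, since those for it are shared with its neighbour H2-DMb2, and it is named here without a value of its own. The RNA came from long-term haematopoietic stem cells (LT-HSCs) of C57BL/6 mice aged 4 weeks, sorted from the LSK (lineage-negative, Sca-1+, Kit+) compartment as cells that lacked IL7Ra, Flt3 and CD48 and carried CD150. The 3 knockout arrays came from Zbtb7a Flox/Flox Mx1-Cre+ animals and the 2 control arrays from Zbtb7a Flox/+ Mx1-Cre+ animals. Zbtb7a encodes the transcription factor LRF, and the comparison asked how its loss affects the LT-HSC transcriptome.

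All animals, controls included, carried the Mx1-Cre transgene and were injected 2 times with 250 µg of pIpC, a double-stranded RNA analogue that induces interferon and through it the Mx1 promoter. Cells were sorted 9 days after the first injection. The Mx1 promoter responds in many cell types, so deletion need not have been limited to stem cells, and the controls kept a single intact allele of Zbtb7a in cells where Cre had acted. The label of knockout 3 carries 2 animal numbers where each other label carries 1, which leaves a pool of animals possible there, and the tests measure the spread between these 5 samples.

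In the usual scheme, an alpha and a beta chain pair in the endoplasmic reticulum around the invariant chain, which Cd74 encodes, and travel to the endosome. There H2-DM, made of H2-DMa and a beta chain, exchanges the last fragment of the invariant chain for peptide, and H2-O, made of H2-Oa and H2-Ob, restrains H2-DM. Ciita encodes the coactivator that switches the whole group on, acting through a complex on the X and Y boxes of their promoters, and interferon gamma is its best known inducer outside B cells and dendritic cells. Full expression is typical of B cells, dendritic cells and activated macrophages. In C57BL/6 mice the E alpha chain is not made, so the product of H2-Eb1 has no normal partner at the cell surface.

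The members other than Ciita and Cd74 lie together on chromosome 17. RefSeq (GRCm38.p6) orders the region as H2-Oa, Brd2, H2-DMa, H2-DMb2, H2-DMb1, Psmb9, Tap1, Psmb8, Tap2, H2-Ob, the non-coding RNA gene Gm20506, H2-Ab1, H2-Aa, H2-Eb1, H2-Eb2 and the pseudogene H2-Ea. The X box holds the letters GCAAC in many class II promoters and the Y box holds ATTGG, the reverse complement of CCAAT. Promoter windows from RefSeq (GRCm38.p6; 250 bases before to 50 after a start site) were available for H2-Oa, H2-DMa, H2-DMb1, H2-Ob, H2-Aa and H2-Eb1, and for H2-DMb2 and H2-Eb2 outside the group. GCAAC followed on the same strand, 15 to 30 bases later, by ATTGG was found in the windows of 4 members, H2-Aa, H2-Eb1, H2-Oa and H2-Ob, and in that of H2-Eb2. Over all 32851 promoter windows, searched on both strands, 0.834% held this pair, 35.2% held GCAAC and 37.4% held ATTGG. The spacing limits were chosen with these sequences in view. The windows of H2-DMb1 and H2-DMb2 held ATTGG without the pair, and 2 windows of H2-DMa held one motif each. The stretches below are shown because the same pair of motifs stands in front of genes whose values took different courses across the arrays; each runs 5′ to 3′ on the gene's own strand with the motifs in capitals.
H2-Aa, chr17:34287857-34287914, minus strand: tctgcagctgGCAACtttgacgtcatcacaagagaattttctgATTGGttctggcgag
H2-Eb1, chr17:34305766-34305822, plus strand: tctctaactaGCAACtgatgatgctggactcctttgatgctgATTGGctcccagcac
H2-Oa, chr17:34092293-34092350, plus strand: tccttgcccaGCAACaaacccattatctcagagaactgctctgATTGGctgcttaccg
H2-Ob, chr17:34238808-34238862, plus strand: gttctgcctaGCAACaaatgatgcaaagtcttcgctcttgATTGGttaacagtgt
H2-Eb2, chr17:34325533-34325589, plus strand: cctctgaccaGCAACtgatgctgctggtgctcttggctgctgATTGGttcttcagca
The gap between the motifs was 28 bases in H2-Aa and H2-Oa, 27 in H2-Eb1 and H2-Eb2, and 25 in H2-Ob. A match is a description of the letters and not evidence that a factor binds there.

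Values are log2 RMA intensities, so a difference of 1 is a doubling. Array medians ran from 6.38 to 6.40. Probe sets with a mean below 5.77 over the 5 arrays, the dimmest 40%, were left out of the test, and 14 of the 16 probe sets of the group passed. Knockout 2 stood apart: across 45037 probe sets, which do not count as replicates, it correlated with the other arrays at 0.945 to 0.970, where these correlated with each other at 0.977 to 0.990. The difference between the 3′ and 5′ probe sets of Actb, a sign of RNA length, is larger where RNA is shorter. It was 3.85 in knockout 2, below the 4.90 to 5.21 of the other arrays. Its part in the values of knockout 2 was not tested. The LT-HSC markers Kit, Slamf1 and Procr read 11.34, 8.06 and 10.69 in knockout 1, and 11.48, 8.95 and 10.46 in knockout 3. In knockout 2 they read 9.60, 6.60 and 7.62. In control 1 they read 11.12, 8.30 and 9.79, and in control 2 they read 11.82, 9.16 and 10.60. None of the 3 Zbtb7a probe sets separated the groups (knockout minus control 0.41, -0.36 and -0.054), and with the deleted part unnamed in the labels they check nothing about the deletion.

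The antigen-presenting chains and the invariant chain were higher in knockouts 1 and 2 than in both controls, by 1.08 log2 units or more, and within or below the range of the controls in knockout 3. On probe sets assigned to 1 gene alone, none of the peptide loading genes H2-DMa, H2-Oa and H2-Ob lay above both controls in both of these arrays. The brightest probe set of the coactivator gene Ciita did so by 0.044 in knockout 1 and 0.21 in knockout 2. A dim probe set shared by H2-Ob and Gm20506 also did so (5.99, 6.14 and 5.53 in the knockouts, 5.82 in each control). For H2-DMb1 and H2-DMb2, a shared probe set did so (7.67, 7.78 and 6.68, against 6.88 and 7.41). Another did not (6.53, 6.69 and 5.99, against 6.42 and 6.84). No member passed the test over all probe sets. The values follow by role.

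H2-Aa, which encodes the alpha chain of the I-A molecule, read 12.78, 12.34 and 10.72 in knockouts 1, 2 and 3, against 10.91 and 11.09 in controls 1 and 2. Knockouts 1 and 2 lay above both controls and knockout 3 below both. The means were 11.95 ± 1.08 (SD, n = 3) in knockouts and 11.003 ± 0.13 (SD, n = 2) in controls, a log2 difference of 0.94 (SE 0.66, 95% interval -0.79 to 2.68; limma adjusted p = 1). Relative to the control mean, the level was 3.42-fold in knockout 1, 2.53-fold in knockout 2 and 0.822-fold in knockout 3. The other 3 probe sets of H2-Aa gave differences between 0.45 and 1.21, and on each of them knockouts 1 and 2 lay above both controls and knockout 3 was the lowest array. All 4 are of types (_x_at or _s_at) that can share probes with similar transcripts.

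H2-Ab1, which encodes the beta chain that pairs with H2-Aa, read 10.30, 9.98 and 8.32 in knockouts 1, 2 and 3, against 8.35 and 8.90 in controls 1 and 2. As for H2-Aa, knockouts 1 and 2 were the high arrays and knockout 3 the lowest of all 5. The difference was 0.91 (SE 0.67, 95% interval -0.84 to 2.66; limma adjusted p = 1), from means of 9.53 ± 1.07 (SD, n = 3) in knockouts and 8.62 ± 0.39 (SD, n = 2) in controls. Its dimmer probe sets differed by 0.67 and 0.40, with knockout 2 above knockout 1 on both.

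H2-Eb1, which encodes the E beta chain, read 9.76, 9.71 and 8.12 in the knockouts, against 7.83 and 8.27 in the controls. Here knockout 3 lay between the controls. The difference of 1.15 was the highest among the brightest probe sets of the 8 genes and had the smallest unadjusted p of the group (SE 0.59, 95% interval -0.39 to 2.68; limma unadjusted p = 0.111, adjusted p = 1). Knockouts averaged 9.20 ± 0.93 (SD, n = 3) and controls 8.05 ± 0.31 (SD, n = 2).

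Cd74, the invariant chain gene, read 9.92, 10.65 and 7.90 in the knockouts, against 8.69 and 8.19 in the controls. It was higher in knockout 2 than in knockout 1, unlike the brightest probe sets of the 3 chain genes, and its value in knockout 3 was the lowest of all 5. The difference was 1.06 (SE 0.87, 95% interval -1.23 to 3.34; limma adjusted p = 1), with means of 9.49 ± 1.43 (SD, n = 3) in knockouts and 8.44 ± 0.35 (SD, n = 2) in controls. The level relative to the control mean was 2.80-fold in knockout 1, 4.65-fold in knockout 2 and 0.690-fold in knockout 3.

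**Figure D1:**
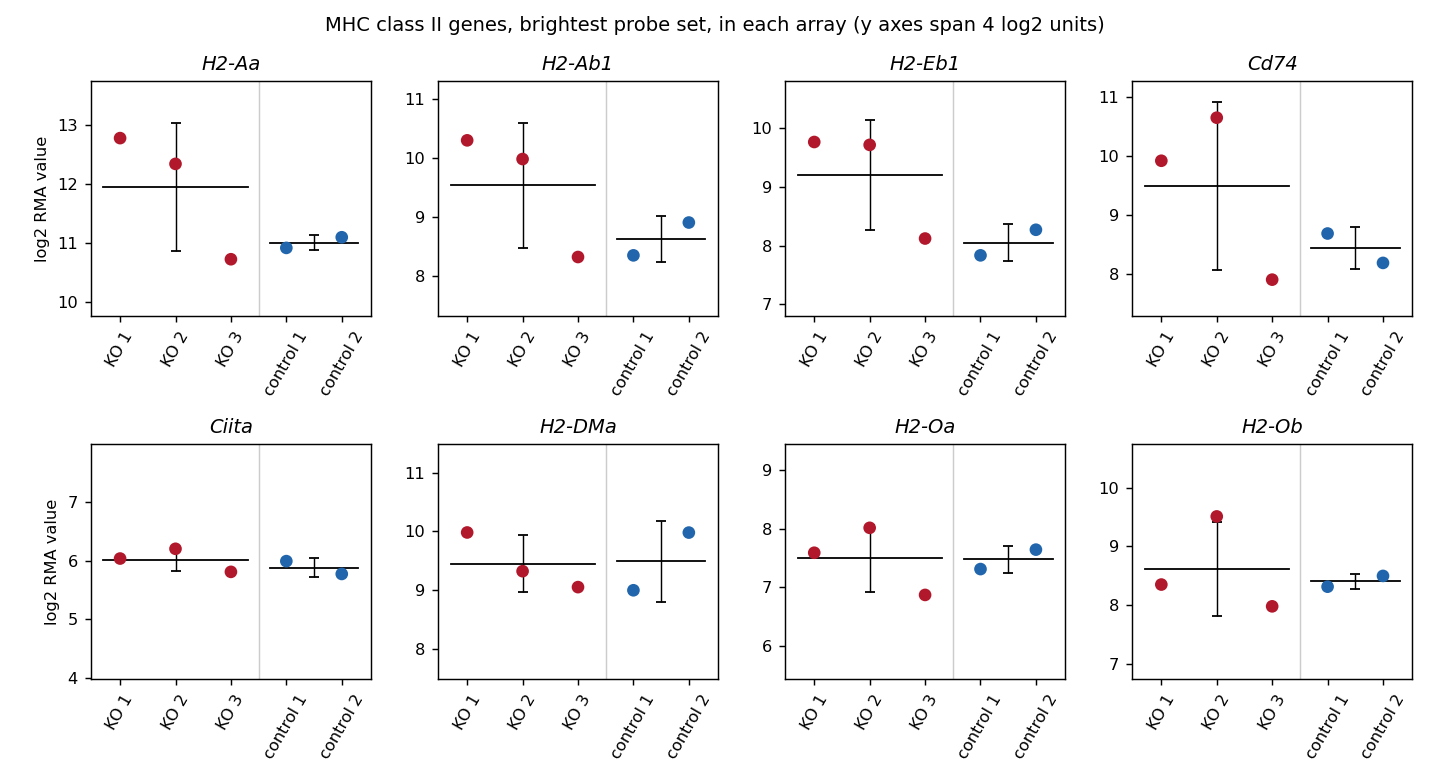
Log2 RMA value (y) of the brightest probe set of each of the 8 measured class II genes in the 3 knockout (KO, red) and 2 control (blue) arrays (x); horizontal lines are group means and error bars 1 SD. H2-Aa, H2-Ab1, H2-Eb1 and Cd74 are high in KO 1 and KO 2 and near the controls in KO 3. Ciita lies above both controls by only 0.044 in KO 1 and 0.21 in KO 2. H2-DMa, H2-Oa and H2-Ob do not lie above both controls in both of these arrays.

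Ciita was dim on every array. Its brightest probe set read 6.03, 6.20 and 5.81 in the knockouts, against 5.99 and 5.77 in the controls, a difference of 0.13 (SE 0.18, 95% interval -0.35 to 0.62; limma adjusted p = 1). The groups overlapped, and the span of all 5 arrays lay close to the level of 5.77 below which probe sets were left out. Its other 2 probe sets, at 4.62 to 5.57, were below that level on average and differed by 0.082 and 0.0088.

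H2-DMa, the alpha chain of the peptide exchange factor H2-DM, read 9.98, 9.32 and 9.05 in the knockouts, against 9.00 and 9.98 in the controls. The 2 controls differed from each other by more than the group means did, and the difference was -0.037 (SE 0.43, 95% interval -1.16 to 1.08; limma adjusted p = 1). A second probe set differed by 0.047.

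H2-Oa, the alpha chain of H2-O, read 7.59, 8.01 and 6.87 in the knockouts, against 7.31 and 7.64 in the controls. Knockout 2 was the highest array and knockout 3 the lowest, and the difference was 0.015 (SE 0.38, 95% interval -0.98 to 1.01; limma adjusted p = 1). H2-Ob, its beta chain, read 8.35, 9.51 and 7.98 in the knockouts, against 8.31 and 8.50 in the controls. Knockout 2 stood above all other arrays, knockout 1 lay between the controls and knockout 3 below both, for a difference of 0.21 (SE 0.50, 95% interval -1.09 to 1.51; limma adjusted p = 1). The intervals of Ciita, H2-DMa, H2-Oa and H2-Ob do not show that these genes were unaffected: those of the last 3 reach above 1, a doubling.

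Counted over the 8 measured members, 7 differences were positive, and the median was 0.56, against -0.030 over the 12813 genes tested. The count of members that passed the limma test at an adjusted p under 0.05 was 0, with 0 at an unadjusted p under 0.05. Over all 27022 probe sets tested the same count was 0 (0%), with 306 (1.13%) at an unadjusted p under 0.05. The groups did not overlap for 0 of the 8 members in either direction, against 2.68% of genes with all knockouts higher and 4.5% with all knockouts lower. Array by array, knockout 1 lay at least 1 log2 unit above both controls for 4 of 8 members, against 0.882% of all genes tested, and knockout 2 did so for 5 of 8, against 3.87%. The same count in knockout 3 was 0 of 8, against 0.351%. Members above both controls by any amount numbered 6 in knockout 1, 7 in knockout 2 and 0 in knockout 3, where 25.3%, 29.6% and 27% of all genes were. Of the 6 in knockout 1, H2-DMa lay above the higher control by only 0.0019 and Ciita by 0.044. Members below both controls numbered 0, 0 and 5 in knockouts 1, 2 and 3, where 25.9%, 44.7% and 25.9% of all genes were. That array was below knockouts 1 and 2 for each of the 8 measured members. Members of the group are controlled together and measured on the same arrays, so they are not independent replicates of these counts.

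**Figure D2:**
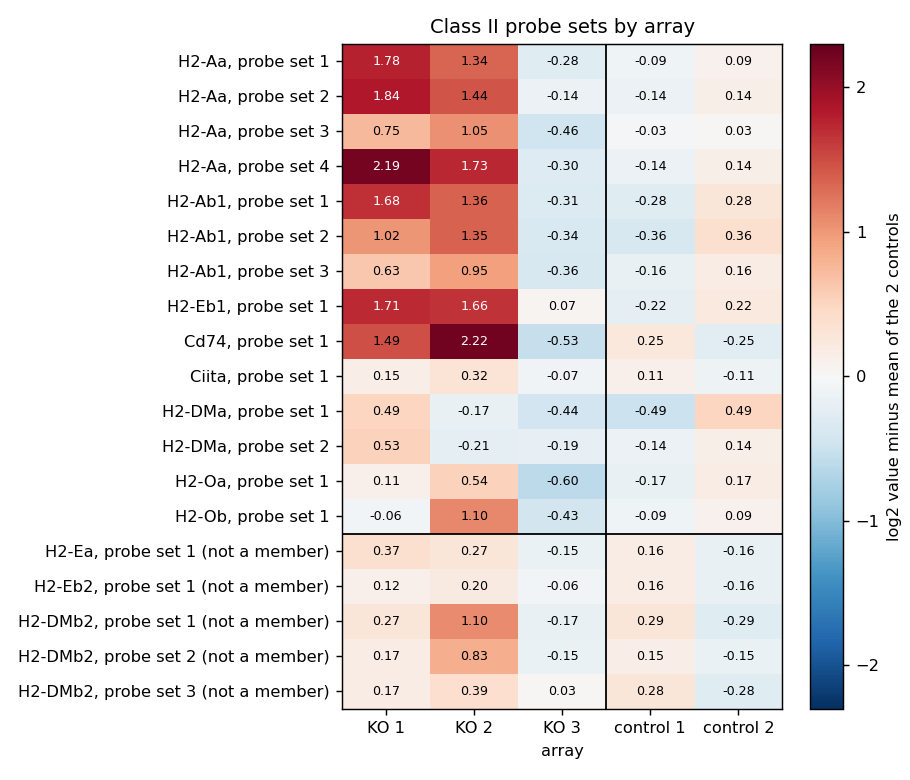
Each row is a class II probe set above the filter and each column an array (KO, knockout); colour and number give the log2 value minus the mean of the 2 controls. All probe sets of H2-Aa, H2-Ab1, H2-Eb1 and Cd74 are positive in KO 1 and KO 2, from 0.63 to 2.22; rows under the line are class II loci outside the group.

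The median over H2-Aa, H2-Ab1, H2-Eb1 and Cd74 lay 1.69 above the control mean in knockout 1, 1.51 above it in knockout 2 and at -0.30 in knockout 3. For H2-DMa, H2-Oa, H2-Ob and Ciita the medians were 0.13, 0.43 and -0.43. This division by role was made with the values in view and is a description. Leaving out knockout 2, the array that stood apart, left differences of 0.75 for H2-Aa, 0.68 for H2-Ab1, 0.89 for H2-Eb1 and 0.48 for Cd74, and turned H2-Oa and H2-Ob negative (-0.25 and -0.24). Leaving out knockout 1 gave 0.53, 0.53, 0.86 and 0.84 for the first 4 genes. Limma's unadjusted p-values for these 4 genes were 0.25 to 0.48 without knockout 1 and 0.23 to 0.57 without knockout 2. Without knockout 3 their differences were 1.56, 1.52, 1.69 and 1.85. Limma's unadjusted p-values in that fit were 0.0042, 0.0087, 0.0028 and 0.010, with an adjusted p of 1 for each. Knockout 3 had already been seen to be the lowest knockout array for these genes. The small p-values depend on that choice and are a description. With the 4 arrays left without knockout 3, the groups were apart for 5 of 8 members, these 4 and Ciita. All knockouts were higher there, as they were for 6.94% of 12832 genes. Ciita lay 0.044 above the higher control in knockout 1.

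**Figure D3:**
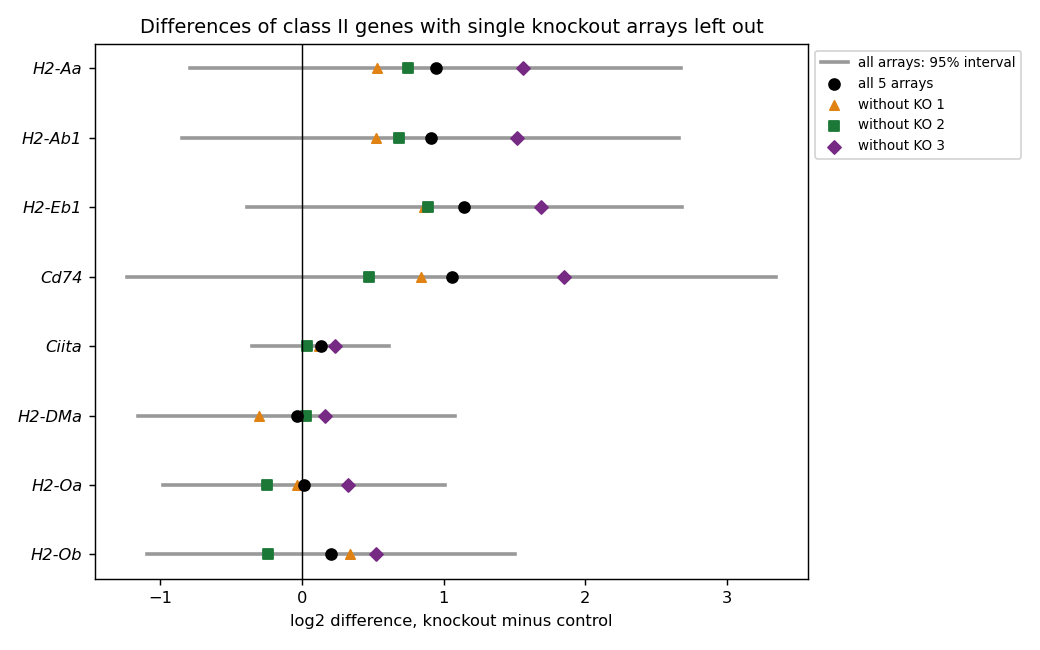
Log2 difference (x, knockout minus control) of the 8 measured class II genes; black points use all 5 arrays with the 95% interval of the limma fit as a grey line, and coloured points leave out 1 knockout (KO) array each. Without KO 3 the differences of H2-Aa, H2-Ab1, H2-Eb1 and Cd74 are 1.52 to 1.85; every grey line crosses 0.

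Among the class II loci outside the group, 1 of 3, H2-Ea, lay above both controls in knockout 1, against 25.3% of all genes. All 3 did in knockout 2, against 29.6%. H2-DMb2, a beta chain gene of H2-DM, read 7.30, 8.12 and 6.85 in the knockouts, against 7.31 and 6.74 in the controls (difference 0.40, SE 0.44). It was highest in knockout 2, as H2-Ob was. H2-Eb2, a beta chain gene with the same promoter motifs as H2-Eb1, read 7.24, 7.32 and 7.05, against 7.28 and 6.95 (difference 0.087, SE 0.18). Its values spanned little more than the 2 controls alone. The brightest probe set of H2-Ea read 8.61, 8.52 and 8.10 in the knockouts, against 8.41 and 8.08 in the controls, while its other 2 read 4.28 to 4.62 on every array, so the probe sets of this silent locus disagree on whether there is signal. None of these 3 loci passed the limma test (adjusted p = 1 for each).

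Genes of class I presentation that lie among the class II genes, or elsewhere as Tapbp does, were set beside them, with their neighbour Brd2, which encodes a bromodomain protein. Tapbp, the tapasin gene, read 11.77, 11.56 and 11.24 in the knockouts, against 11.16 and 11.33 in the controls. It was thus above both controls in knockouts 1 and 2 and between them in knockout 3, as H2-Eb1 was (difference 0.27, SE 0.21). Tap1, a subunit of the peptide transporter, read 10.86, 9.63 and 9.99 in the knockouts, against 9.33 and 10.24 in the controls. Psmb9, an immunoproteasome subunit, read 10.75, 9.77 and 9.84, against 9.25 and 10.31. Tap1 and Psmb9 were highest in knockout 1, and in knockout 2 both lay between the controls. Over Tap1, Tap2, Tapbp, Psmb8, Psmb9 and Brd2 the median against the control mean was 0.68 in knockout 1, -0.14 in knockout 2 and 0.067 in knockout 3. Of these 6 genes, 5 had positive differences and 0 passed the limma test (largest 0.37 for Tap1, SE 0.48).

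The complex that carries Ciita to the promoter showed no member that passed the test. Its 7 genes, Rfx5, Rfxap, Rfxank, Creb1, Nfya, Nfyb and Nfyc, had differences between -0.20 and 0.18 with a median of -0.040, 3 positive and 4 negative. Creb1, whose product binds the X2 box, differed by 0.18 (SE 0.19) and Rfxank by 0.13 (SE 0.18). Nfya, a subunit of the Y box factor NF-Y, differed by -0.20 (SE 0.30).

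On the route from interferon gamma to Ciita, 5 of 7 tested genes were positive and 2 negative, and 0 passed. Ifngr1, the ligand-binding chain of the receptor, read 9.94, 10.05 and 9.76 in the knockouts, against 9.34 and 9.48 in the controls, so the groups did not overlap (difference 0.51, SE 0.16; limma unadjusted p = 0.0277, adjusted p = 1). Jak2, the kinase bound to the other receptor chain, differed by -0.19 (SE 0.19). Usf1, a factor that acts at a promoter of Ciita, differed by 0.18 (SE 0.19). Ifng itself, named here after its values were seen, read 7.40 in knockout 2 and 3.91 to 4.11 on the other 4 arrays, and its mean lay below the filter.

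Genes for processing and turnover of class II molecules had 4 of 11 differences positive and 7 negative, with a median of -0.039, and 0 passed. Lgmn, an asparagine endopeptidase of lysosomes, read 6.34, 6.99 and 7.65 in the knockouts, against 8.62 and 8.35 in the controls, lower in each knockout array (difference -1.49, SE 0.42; limma unadjusted p = 0.0183, adjusted p = 1). Ctsl, a cathepsin that trims the invariant chain in the thymus, read 10.26, 10.26 and 10.41, against 9.86 and 10.13 (difference 0.31, SE 0.16). Ctsb, another cathepsin, differed by -0.71 (SE 0.44). Over this list knockout 1 lay above both controls for 1 of 11 genes, against 25.3% of all genes, and knockout 2 for 6 of 11, against 29.6%. Among 4 tested costimulation genes, 3 were positive and 1 negative, and 0 passed. Cd86, a ligand of CD28, read 8.10, 7.97 and 8.27 in the knockouts, against 8.62 and 8.51 in the controls (difference -0.46, SE 0.16; limma unadjusted p = 0.0380, adjusted p = 1). Cd40, a receptor on antigen-presenting cells, differed by 0.36 (SE 0.48) and Icosl, the ligand of ICOS, by 0.19 (SE 0.42).

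Markers of class II-expressing cells were read on the same arrays, since in bulk RNA a change in the number of such cells and a change in transcript per cell cannot be told apart. Of 12 tested B cell markers, 12 were highest in knockout 2, with a list median 1.72 above the control mean there. In knockout 1 the median was -0.35 and 0 of 12 markers lay above both controls, and in knockout 3 it was -0.29, again with 0 of 12. Ms4a1, which encodes CD20 and is named after its values were seen, read 6.52, 11.49 and 6.12 in the knockouts, against 8.24 and 6.84 in the controls. Ebf1, a factor that specifies B cells, read 4.97, 9.38 and 4.99, against 6.11 and 6.43, so in knockouts 1 and 3 it lay below the filter level. By the naming rule, Blk differed by 0.64 (SE 0.63), Igll1 by 0.55 (SE 0.56) and Vpreb3 by 0.52 (SE 0.60), and 0 of the 12 markers passed. The B cell markers were thus high in 1 of the 2 arrays in which the class II chains were high; their part in the values of knockout 2 was not tested.

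Of 10 tested dendritic cell markers, 8 were highest in knockout 2, as 3335 of 12813 genes were. The list medians were 0.18, 1.21 and 0.0092 in knockouts 1, 2 and 3 relative to the control mean. Above both controls lay 6 of 10 in knockout 1, 8 of 10 in knockout 2 and 3 of 10 in knockout 3. Over all genes tested these shares were 25.3%, 29.6% and 27%. Clec10a, a lectin of dendritic cells and macrophages, read 6.83, 8.28 and 7.28 in the knockouts, against 5.68 and 6.78 in the controls (difference 1.24, SE 0.56). Irf8, a factor needed for a dendritic cell subset, read 9.47, 12.13 and 9.29, against 9.45 and 8.95 (difference 1.10, SE 0.97). Cd209a differed by 0.55 (SE 0.44). Itgax, which encodes CD11c, read 6.16, 8.23 and 6.16, against 6.14 and 5.99. Of the 10, 9 differences were positive and 0 passed, and the part of such cells in the class II values was not tested.

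Macrophage markers had a list median below that of both controls in all 3 knockout arrays. Of 14 tested, 13 were lower on average in knockouts, with list medians of -1.80, -1.71 and -0.72 in knockouts 1, 2 and 3, and 0 passed. The list median was thus lowest in the arrays in which H2-Aa and Cd74 were highest, but single markers differed. Csf1r, the receptor for a macrophage growth factor, read 9.99, 13.19 and 10.90 in the knockouts, against 12.43 and 11.09 in the controls, and was highest in knockout 2. Adgre1 and Cd68 read 10.11 and 9.08 in knockout 2, above the 9.49 and 8.30 of knockout 3, and in knockout 2 each lay between the controls. Csf1r, Adgre1 and Cd68 were named after their values were seen. By the naming rule, Axl, a receptor tyrosine kinase, differed by -2.31 (SE 0.55), Spic by -1.07 (SE 0.27) and Cd163 by -3.09 (SE 0.90). All 3 knockout arrays lay below both controls for 9 of the 14 markers, against 4.5% of all genes tested.

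Interferon-induced genes were highest in knockout 1. Of 18 tested, 17 had their highest value there, as 1733 of 12813 genes did, and 0 passed the limma test. The list median was 2.12, 0.35 and 0.36 above the control mean in knockouts 1, 2 and 3. All 3 knockout arrays lay above both controls for 10 of 18, against 2.68% of all genes tested. In knockout 2, 12 of 18 lay above both controls, against 29.6%, and in knockout 3, 12 of 18, against 27%. Mx1 read 10.77 in knockout 1, 7.30 in knockout 2 and 7.14 in knockout 3, against 5.47 and 6.32 in controls 1 and 2. The part of the interferon response in the class II values was not tested. Immediate early genes, which respond to cell handling and activation, were highest in knockout 2 for 10 of 10 tested, as 3335 of 12813 genes were. Their list median lay 3.76 above the control mean there, against 0.0098 in knockout 1.

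**Figure D4:**
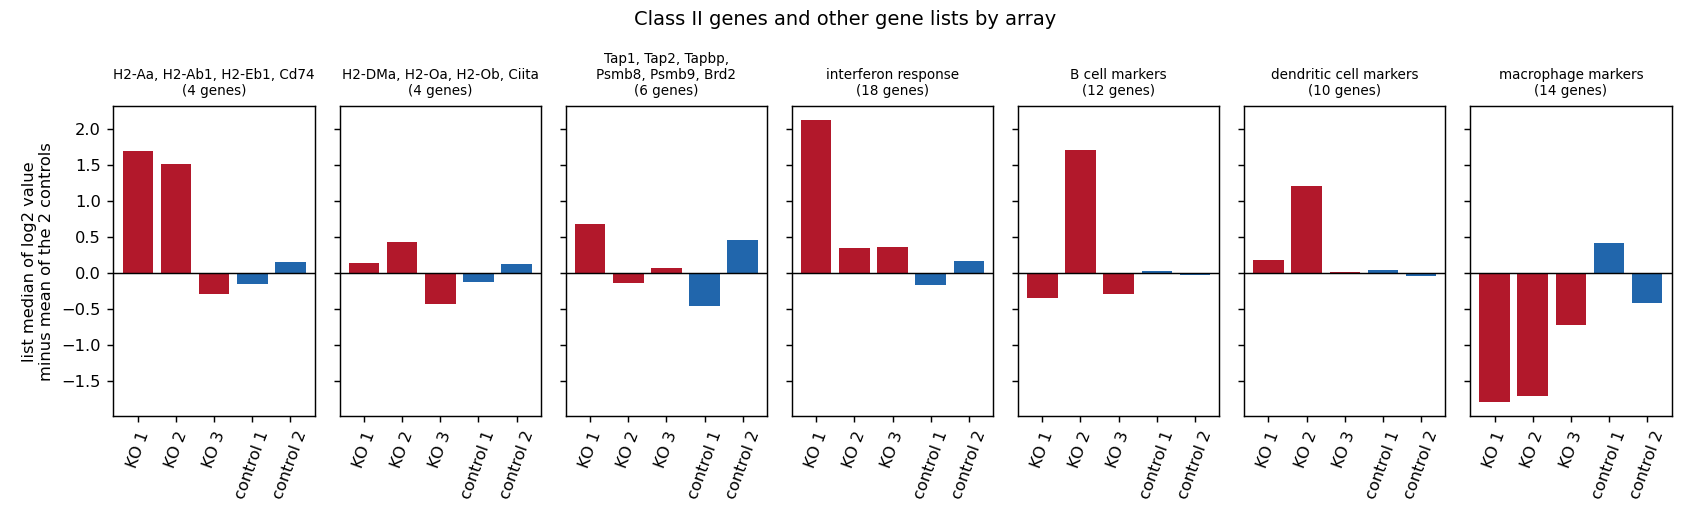
Median over each gene list of the log2 value minus the mean of the 2 controls (y), by array (x; KO, knockout, red; control, blue), with the number of genes tested in brackets. The 4 chain and invariant chain genes are high in KO 1 and KO 2, the interferon list is high in KO 1 (2.12) and the B cell list in KO 2 (1.72). The median of the macrophage list, though not each of its markers, is low in all 3 knockout arrays.

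Transcripts of surface proteins that the sort excludes were read as well. Il7r read 9.35, 10.50 and 7.44 in the knockouts, against 6.21 and 7.30 in the controls (difference 2.34, SE 0.98). It was highest in the same 2 arrays as H2-Aa. Unlike H2-Aa, Il7r lay above both controls in knockout 3 as well, so its groups did not overlap, as for 2.68% of genes with all knockouts higher. Flt3 read 8.92, 8.56 and 8.25, against 8.41 and 9.50, and Cd48 read 8.42, 9.97 and 8.49, against 7.87 and 8.59. Neither followed the class II chains in knockout 1.

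The genes outside the group whose values were most like its mean profile over the 5 arrays were sought among 2932 genes with an SD of at least 0.5. The highest Pearson correlations, given as a description over 5 arrays, belonged to Ms4a4b (0.968), Ighm (0.957), Ablim1 (0.954), Ms4a4c (0.952), Tent5a (0.950) and Jchain (0.948). Ighm, the constant region of immunoglobulin mu, read 12.63, 13.90 and 8.99 in the knockouts, against 10.30 and 9.62 in the controls. Jchain, which links immunoglobulin polymers, read 8.87, 10.32 and 5.05, against 5.15 and 4.79, a difference of 3.11 (SE 1.63). Ms4a4b, a membrane protein of T cells, read 8.66, 9.50 and 5.56, against 4.91 and 5.99. These 3 genes were high in knockouts 1 and 2, as follows from choosing them by likeness to the group's profile. None of the 6 had an adjusted p below 1 in the limma fit. The values of Ighm and Jchain in knockout 1 are therefore no separate finding beside the 12 listed B cell markers, of which 0 lay above both controls there.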

How the data were processed

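RNA from sorted LT-HSCs was hybridised to 5 Affymetrix mouse arrays, 3 knockout and 2 control, after 2 rounds of in vitro transcription, per the labels' protocols. The deposited values are log2 intensities, computed by the authors with RMA and Affymetrix Expression Console according to the submitters' processing notes, which give no versions here. RMA forces arrays to one distribution and compresses dim values. Control probe sets (64) were left out, as were the 40% of the other 45037 with the lowest mean, so 27022 were tested. The platform annotation named 34945 probe sets with 1 symbol and 932 with several, and left 9160 unnamed. A gene was represented by its brightest single-gene probe set above the filter.

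The knockout and control groups were compared with limma 3.58.1 (R 4.3.3; lmFit and eBayes, two-sided, Benjamini-Hochberg over all probe sets tested, threshold 0.05). The fit was tested on simulated data. The number of arrays limits precision. Named genes were the 9 members, the other class II loci, up to 3 genes of smallest p in each list described in detail, genes the sort names, and the 6 most similar genes. From the lists, Ms4a1, Ebf1, Itgax, Csf1r, Adgre1, Cd68, Ifng and Procr were named outside these rules, with the values known. List entries without a matching single-gene probe set were not analysed here. Members and lists were chosen with earlier results of these data known. Alternatives were another eBayes prior, other filters, cyclic loess, median centring, array weights, averaging the probe sets of each gene, leaving out single arrays and a replicate block. Figures used matplotlib 3.10.9.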

Additional observations from a re-analysis of the deposited data

How the results depend on the processing

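No class II probe set was called under any of the 13 alternatives. Nor was any other probe set or gene tested, so this count is not particular to class II genes. The median difference of the measured members (0.56) stayed positive in all 13, at 0.43 to 1.02 under other settings and 0.26 to 1.02 as single arrays were left out: 0.26 without knockout 2, 1.02 without knockout 3 and 0.91 with the lowest 60% left out, where Ciita no longer passed the filter. The number of members with groups apart was 0 to 5 as single arrays were left out, and 5 with the replicate block, all with knockouts higher: 5 without knockout 3, as for 6.94% of all genes, 1 without control 1, as for 16.2%, and 2 without control 2, as for 15.1%. The block used the 4 arrays whose number occurs in both groups, so its differences equal those without knockout 3. Same-numbered arrays share no more than a number in the labels, and their deviations from the group means correlated at -0.54 and -0.57. The deviations of 2 controls from their mean mirror each other, so the crossed pairs gave 0.54 and 0.57 by construction. H2-Aa, H2-Ab1, H2-Eb1, Cd74 and Ciita kept a positive difference under every alternative that gave them a value. H2-DMa turned positive with array weights (0.37), the mean of its probe sets (0.0050), the replicate block (0.16), without knockout 2 (0.028), without knockout 3 (0.16) and without control 2 (0.45), over a range of -0.53 to 0.45 without single arrays. H2-Oa turned negative without knockout 1 (-0.034), knockout 2 (-0.25) or control 1 (-0.15), over a range of -0.25 to 0.32. H2-Ob turned negative with array weights (-0.071) and without knockout 2 (-0.24), over a range of -0.24 to 0.52. The cause was not tested. The smallest adjusted p of any member in any alternative was 0.856 (array weights, limma).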
